A study of Rattus norvegicus with 6 samples.

Results

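The Wnt pathway was described in rat Schwann cells after activation of the kinase Raf. The genes were chosen by symbol alone among those annotated to the probe sets. They were the Wnt ligands, Frizzled receptors (Fzd), secreted Frizzled-related proteins (Sfrp), Dickkopfs (Dkk) and TCF7-type transcription factors found there. Named co-receptors, cytoplasmic components, feedback inhibitors and the ligand-modifying enzyme Porcn were taken with them. This gave 45 genes with 76 probe sets, of 14217 genes and 31042 probe sets tested. Ror1 and Ror2, which the same rule names, were not analysed here. Other family members, Wnt3a, Fzd7 and Dkk1 among them, had no annotated probe set, so the families are not complete. Schwann cells, the glia that wrap peripheral axons, were primary cultures from rat sciatic nerve, and all of them carried RafER, a fusion that makes Raf inducible by tamoxifen. In 3 experiments called independent in the design text, cells in a minimal medium received tamoxifen for 24 h (3 arrays) or the ethanol vehicle (3 arrays). Sample labels speak of treated animals whereas the design text has treatment in culture, which was followed here, so p-values measure the spread between these cultures as the design text describes them. Since every culture had the fusion and none lacking it was analysed here, actions of Raf and of the drug alone cannot be told apart.

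Wnt proteins are secreted signals that bind Frizzled receptors and the co-receptors Lrp5 and Lrp6. In the canonical branch this stops a destruction complex built on Axin, Apc and Gsk3b from degrading beta-catenin, which then enters the nucleus and activates target genes with a factor of the TCF/LEF family. Other branches act through Ryk, planar polarity proteins and small GTPases. In Schwann cells beta-catenin and TCF activity has been linked to expression of myelin genes.

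Array values are log2 expression per probe set, so 1 unit is a doubling, and a low value can be background because the table holds no detection calls. Over all probe sets the mean level had a 25th percentile of 4.83, a median of 6.37 and a 75th percentile of 8.54. Arrays of the same group correlated at 0.984 to 0.995 and arrays of different groups at 0.934 to 0.966. Signal at the 5' end was weak on vehicle array 1, where 3 control transcripts had a mean 3' minus 5' difference of 0.84, against 0.16 to 0.27 on the other 5 arrays. The Schwann markers S100b and Sox10 were bright on all arrays (at least 11.83 and at least 10.54). Of 7 Schwann markers measured 0 were higher and 3 lower after tamoxifen: S100b (-0.76), Ngfr (-1.53) and Pmp22 (-2.18). The summed linear level of the 7 was 11226 to 15707 on tamoxifen arrays and 27610 to 34960 on vehicle arrays. Of 12 fibroblast markers 3 were higher (Fbln1 by 1.61, Pdgfra by 0.52 and Pi16 by 0.37). The 3 lower were all collagen genes (Col3a1, -2.38, Col1a1, -1.23, and Col1a2, -0.46). For each marker list the share among all genes was 13.9% higher and 17.3% lower. The summed linear level of the 12 was 10836 to 12848 on tamoxifen arrays and 17418 to 24563 on vehicle arrays. Col1a1 and Col1a2, at 11.71 or above, were the brightest of the 12 on every array and weigh most in this sum. The defining fibroblast markers Dcn and Lum were near the bottom of the table, at 4.01 to 4.28 and 3.32 to 3.54. The 7 endothelial markers summed to 280 to 326 on tamoxifen arrays and 199 to 212 on vehicle arrays. For the 9 macrophage markers the sums were 298 to 313 and 269 to 282, and 0 were called. The 1 endothelial marker called was Ramp2 (1.29, adjusted p = 0.00171, limma). The 6 others differed by -0.05 to 0.30 and did not pass. Of 6 perineurial markers 2 were higher (Moxd1 by 1.42 and Slc2a1 by 0.61) and 2 lower (Itgb4, -2.47, and Tjp1, -0.76), and their summed level was 2867 to 3546 on tamoxifen arrays and 4285 to 4950 on vehicle arrays. In such bulk samples fewer cells of a type and less RNA per cell cannot be told apart.

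After tamoxifen the transcription factor genes Lef1 and Tcf7, the feedback gene Axin2 and the antagonist gene Sfrp4 were higher. The transcription factor gene Tcf7l2, the receptor gene Fzd1 and the antagonist genes Sfrp1, Dkk3 and Wif1 were lower. These 9 of 45 (20.0%) had an adjusted p under 0.05 by limma's moderated test, in which each gene is represented by its brightest probe set and p is adjusted over all 31042 probe sets (Benjamini-Hochberg). Among all genes 31.2% passed, 13.9% as higher and 17.3% as lower, so these members held a smaller share of calls than the table. The members were also dimmer, with a median level of 6.73 against 7.59 for all genes. The part of this in the smaller share was not tested. Members that passed with a difference of at least 1 log2 unit numbered 7 of 45 (15.6%), against 11.8% of all genes. In the unmoderated test Sfrp4 (adjusted p = 0.0516), Dkk3 (0.0513), Fzd1 (0.0705) and Wif1 (0.135) did not pass. Tamoxifen and vehicle arrays did not overlap for 19 of the 45 genes (42.2%), 11 of them higher, against 49.1% of all genes. The groups did not overlap for any of the 4433 genes that passed. For a called gene the lack of overlap is therefore a description and adds no support to its call. The median difference, tamoxifen minus vehicle, was 0.09 over the members and 0.01 over all genes, and its median size was 0.20 and 0.25.

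**Figure D1:**
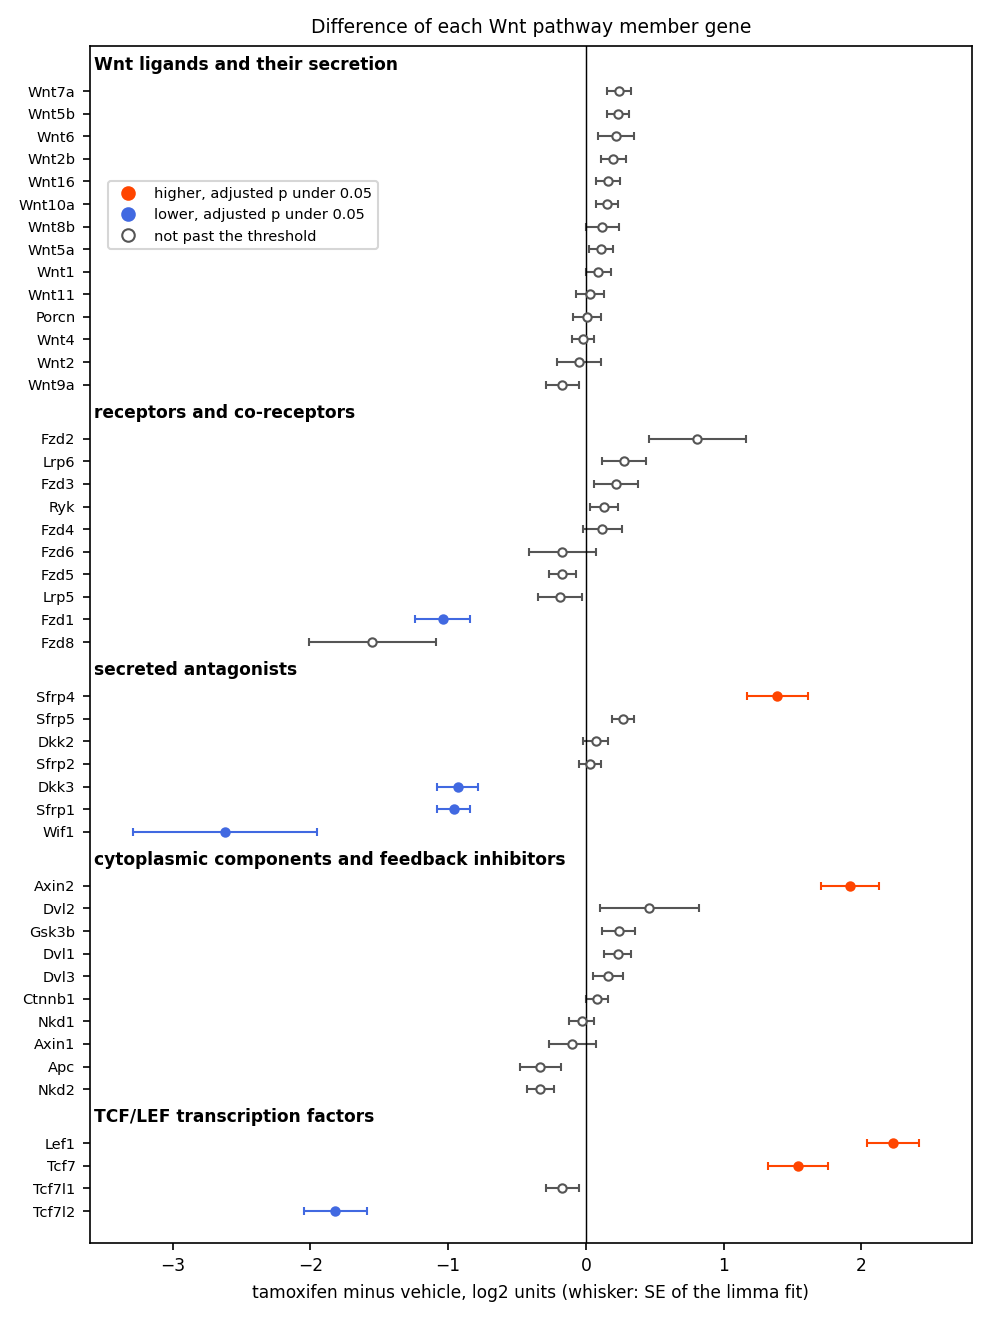
Tamoxifen minus vehicle difference in log2 units (x axis, whisker: SE of the limma fit) for each of the 45 member genes by its brightest probe set, grouped by role; filled points passed an adjusted p of 0.05. The ligands lie between -0.17 and 0.24, while the TCF/LEF genes reach 2.23 (Lef1) and -1.82 (Tcf7l2).

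The regulatory letters of 2 of the changed genes, Axin2 and Lef1, are shown because Axin2 is itself a textbook target of beta-catenin and because AP-1 factors, which bind a known short motif, are nuclear endpoints of Raf signalling. Each is the 250 bases before the gene's start in RefSeq (rat build GRCr8), printed in the direction of the gene: chr10:94398535-94398784 on the plus strand for Axin2 and chr2:222340463-222340712 on the plus strand for Lef1. Capitals mark the TCF/LEF core letters CTTTGA in Axin2 and the AP-1 letters TGANTCA in Lef1, both searched on both strands.
Axin2: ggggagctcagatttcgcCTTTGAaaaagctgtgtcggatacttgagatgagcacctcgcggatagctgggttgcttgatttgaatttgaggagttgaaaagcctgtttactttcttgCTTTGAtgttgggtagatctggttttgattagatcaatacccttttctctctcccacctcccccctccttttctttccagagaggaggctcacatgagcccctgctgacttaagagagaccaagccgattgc
Lef1: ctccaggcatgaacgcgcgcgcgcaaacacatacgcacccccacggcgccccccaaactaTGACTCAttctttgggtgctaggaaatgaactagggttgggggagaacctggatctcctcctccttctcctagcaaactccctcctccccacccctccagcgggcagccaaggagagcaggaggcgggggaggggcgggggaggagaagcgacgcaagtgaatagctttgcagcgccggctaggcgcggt

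The Axin2 window holds CTTTGA at 2 places, beginning 232 and 132 bases before the start, and the Lef1 window holds TGACTCA once, beginning 190 bases before it. Of 33465 rat promoters of the same length, 13.9% hold CTTTGA and 6.34% hold TGANTCA. Of the 34 members that have a promoter there, 2 hold each motif, and of the 6 called members among them 1 holds each. The windows of Tcf7, Tcf7l2, Fzd1 and Wif1, the other called members there, hold neither. The 2 windows shown are thus the only ones among these 6 with a match. The called members Sfrp1, Sfrp4 and Dkk3 had no promoter there and were not searched. These are matches of letters only.

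The 4 TCF/LEF genes encode the DNA-binding partners of beta-catenin, and 3 of them passed the test, in opposite directions. Lef1 had 9.73, 9.70 and 10.37 on the tamoxifen arrays of experiments 1 to 3, against 7.72, 7.65 and 7.76 on the vehicle arrays. All tamoxifen values lay above all vehicle values, and the tamoxifen array of experiment 3 was the highest. Lef1 rose by 2.23 ± 0.19 (SE; adjusted p = 7.15e-04, limma), a 4.68-fold difference, and its other probe set gave 2.24 (adjusted p = 0.00142). Tcf7, which encodes TCF-1, had 9.55, 9.37 and 9.47 after tamoxifen and 8.42, 7.86 and 7.50 with vehicle. It rose by 1.54 ± 0.22 (adjusted p = 0.00417, limma), or 2.90-fold, by its only probe set, and the groups did not overlap.

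Tcf7l2 encodes TCF-4, the family member best known from intestinal stem cells and oligodendrocytes. Its brightest probe set had 8.51, 8.22 and 7.60 after tamoxifen and 10.10, 9.90 and 9.79 with vehicle. It fell by 1.82 on the log2 scale (SE 0.23; adjusted p = 0.00265, limma), which is 3.53-fold lower, and every tamoxifen array lay below every vehicle array. All 5 probe sets of Tcf7l2 were lower and had groups that did not overlap, but only 3 passed. Among all probe sets 42.4% did not overlap and 24.4% passed. The others called gave -1.68 (adjusted p = 0.00725) and -0.54 (0.0220), and those not past the threshold gave -0.26 (0.201) and -0.37 (0.126). With the mean of its probe sets the difference was -0.93 (adjusted p = 0.00285). Tcf7l1, which encodes the mostly repressive TCF-3, differed by -0.17 ± 0.12 (adjusted p = 0.402), with a 95% interval of -0.46 to 0.13. Thus within the family the difference ran from 2.23 for Lef1 to -1.82 for Tcf7l2.

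**Figure D2:**
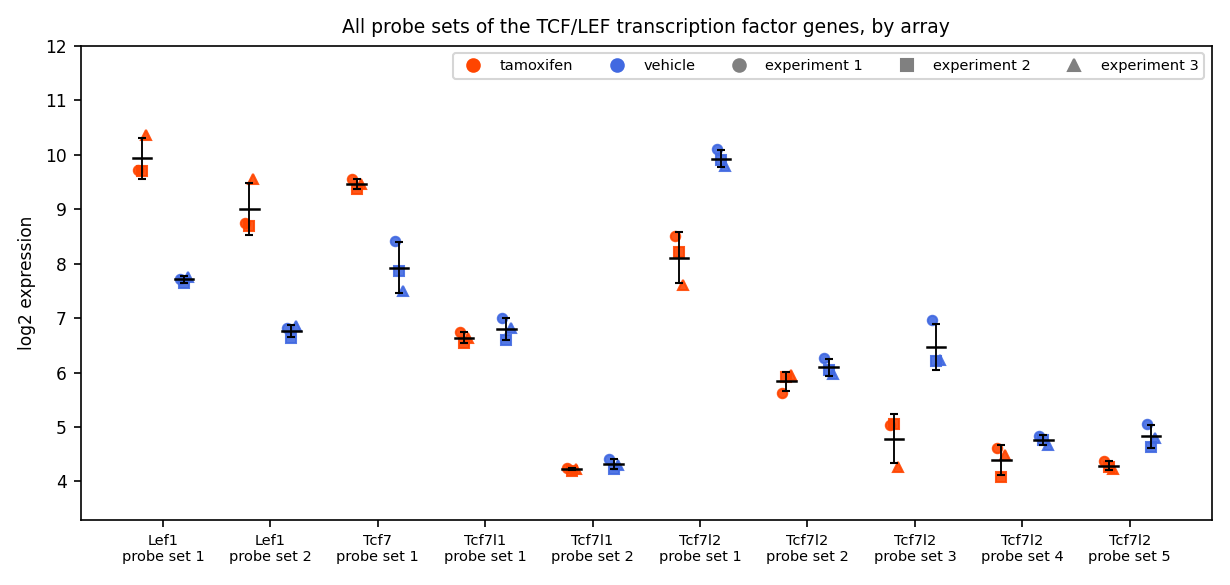
Log2 expression (y axis) on each array for all 10 probe sets of Lef1, Tcf7, Tcf7l1 and Tcf7l2, numbered from the brightest, with tamoxifen left of vehicle; marker shape gives the experiment, bars the mean and whiskers the SD. Both Lef1 probe sets and that of Tcf7 were above vehicle on every tamoxifen array, and all 5 Tcf7l2 probe sets were below it.

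Of 10 cytoplasmic components and feedback inhibitors 1 was higher and 0 were lower (10.0% called, against 31.2% of all genes). Axin2 is a scaffold of the destruction complex whose gene is switched on by beta-catenin. It had 8.06, 8.04 and 8.48 after tamoxifen, against 6.28, 5.89 and 6.64 with vehicle. The lowest tamoxifen value was thus above the highest vehicle value. Axin2 rose by 1.92 ± 0.21 (adjusted p = 0.00177, limma), or 3.79-fold, with within-experiment differences of 1.78, 2.15 and 1.84. Its relative Axin1, which is not known as a target gene, differed by -0.10 ± 0.17 (adjusted p = 0.726).

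Ctnnb1, the beta-catenin gene itself, was bright on all arrays. Its brightest probe set had 13.27, 13.23 and 13.28 after tamoxifen and 13.11, 13.24 and 13.19 with vehicle. The groups overlapped and the difference was 0.08 ± 0.08 (adjusted p = 0.536, 95% interval -0.11 to 0.27). Another Ctnnb1 probe set gave 0.82 (adjusted p = 0.0765), with its lowest value, 9.97, on the vehicle array that had weak 5' signal, and the part of that signal in it was not tested. Transcript levels do not show how much beta-catenin protein the cells held.

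The other destruction complex genes did not pass: Gsk3b, the kinase that marks beta-catenin for decay, differed by 0.24 ± 0.12 (adjusted p = 0.226) and the scaffold gene Apc by -0.33 ± 0.15 (0.161). Differences of the 3 Dishevelled genes, which relay the signal from Frizzled, ranged from 0.16 to 0.46, with 95% intervals reaching from -0.40 to 1.32. Dvl2 had 5.86, 6.16 and 6.17 after tamoxifen and 4.71, 6.06 and 6.04 with vehicle, the low value being again that of the vehicle array with weak 5' signal. Without that array the Dvl2 difference was 0.01. Nkd2 encodes a Naked cuticle protein that binds Dishevelled and was bright, with 11.26, 11.04 and 10.98 after tamoxifen and 11.43, 11.46 and 11.37 with vehicle. The groups did not overlap, yet the difference of -0.33 ± 0.10 missed the threshold (adjusted p = 0.0578). Its relative Nkd1 differed by -0.03 ± 0.09 (adjusted p = 0.870).

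Secreted antagonists act outside the cell, some by binding Wnts and others, among the Dickkopfs, by blocking the co-receptors. Of the 7 measured 3 were lower, 1 was higher and 3 did not pass, where 17.3% of all genes were lower and 13.9% higher. Sfrp1 carries a Frizzled-like domain that binds Wnts. It had 11.29, 11.37 and 11.12 after tamoxifen, against 12.30, 12.04 and 12.32 with vehicle, so the groups stood apart with little spread within each. Sfrp1 fell by 0.96 on the log2 scale (SE 0.12; adjusted p = 0.00232, limma), or 1.94-fold, and its other probe sets gave -1.18 (adjusted p = 0.0207) and -1.19 (0.00588).

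Wif1, the Wnt inhibitory factor, binds Wnts through a domain of its own. It had 5.40, 5.53 and 4.23 after tamoxifen and 8.25, 8.61 and 6.16 with vehicle. Both arrays of experiment 3 were the lowest of their group, and the vehicle array of that experiment was less than 1 log2 unit above the highest tamoxifen array. Wif1 had the largest fall of the 45 genes, by 2.62 on the log2 scale (SE 0.67; adjusted p = 0.0318, limma), or 6.14-fold. The call was lost without any 1 array other than vehicle array 3: without tamoxifen array 1 (adjusted p = 0.0670), 2 (0.0681) or 3 (0.102), or vehicle array 1 (0.0749) or 2 (0.0856). Within experiments its differences were -2.85, -3.08 and -1.93.

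Dkk3 encodes a divergent Dickkopf that lacks the strong co-receptor blocking of its relatives. It had 7.16, 7.13 and 7.23 after tamoxifen and 8.45, 7.92 and 7.93 with vehicle, without overlap. Dkk3 fell by 0.93 on the log2 scale (SE 0.15; adjusted p = 0.00687, limma), or 1.90-fold. Its 3 other probe sets gave -0.08, -0.06 and 0.04 and did not pass, and the mean of all 4 gave -0.25 (adjusted p = 0.0432).

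Sfrp4 went the other way from Sfrp1, with 7.65, 7.18 and 6.80 after tamoxifen and 5.98, 5.83 and 5.65 with vehicle. Every tamoxifen array was above every vehicle array. Sfrp4 rose by 1.39 ± 0.22 (adjusted p = 0.00546, limma), or 2.62-fold, while its other probe set, at levels of 3.94 to 4.34, gave 0.19 (adjusted p = 0.251), and the mean of both gave 0.79 (adjusted p = 0.00543). Sfrp5 differed by 0.27 ± 0.08 (adjusted p = 0.0575), Sfrp2 by 0.03 ± 0.08 (0.795) and Dkk2, near the bottom of the table at 3.44 to 3.68, by 0.07 ± 0.09 (0.665). The part in these antagonist results of the fibroblast marker levels given above was not tested.

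**Figure D3:**
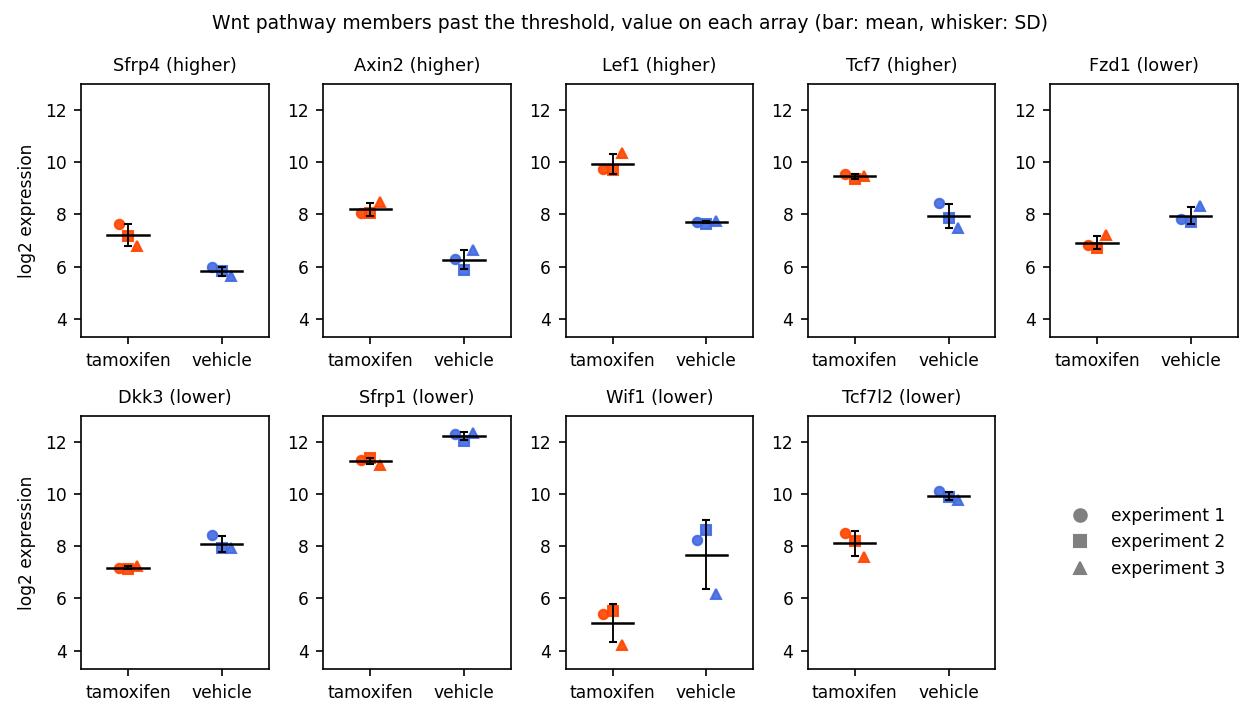
Log2 expression (y axis) on each array for the 9 members past the threshold, with tamoxifen left of vehicle in each panel; marker shape gives the experiment, bars the mean and whiskers the SD of 3 arrays. In all 9 panels the groups do not overlap, which held for every gene that passed. The spread is widest for Wif1 (SD 0.72 after tamoxifen and 1.32 with vehicle).

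Of 10 receptors and co-receptors 1 was lower and 0 were higher (10.0% called, against 31.2% of all genes). Fzd1, a Frizzled of the canonical branch, had 6.83, 6.71 and 7.20 after tamoxifen and 7.82, 7.71 and 8.32 with vehicle. The groups did not overlap, and in both the array of experiment 3 was the highest. Fzd1 fell by 1.04 on the log2 scale (SE 0.20; adjusted p = 0.0111, limma), or 2.05-fold, with within-experiment differences of -0.99 to -1.12.

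Fzd8 had 7.56, 7.34 and 7.30 after tamoxifen and 8.33, 8.41 and 10.12 with vehicle, so vehicle array 3 stood well above the others. Its difference of -1.55 ± 0.46 missed the threshold (adjusted p = 0.0521), while a fit blocked by experiment called it lower (adjusted p = 0.0454). Without vehicle array 3 it was -0.97 (adjusted p = 0.00608). Of the 12 fibroblast markers, that array had the highest value of all 6 arrays for 3 (Col3a1, Mfap5 and Col1a2) and the lowest for 4 (Dcn, Lum, Pdgfra and Fbln1), and their part in the Fzd8 value was not tested. Fzd2, another Frizzled, had 9.32, 9.54 and 10.46 after tamoxifen and 8.72, 8.67 and 9.50 with vehicle. These groups overlapped, and the difference of 0.81 ± 0.35 did not pass (adjusted p = 0.147). Within each experiment the tamoxifen array was higher, by 0.60, 0.87 and 0.96, and with the experiment as a block Fzd2 passed as higher (adjusted p = 0.00632).

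The remaining Frizzled genes measured, Fzd3, Fzd4, Fzd5 and Fzd6, differed by 0.22, 0.12, -0.17 and -0.17. All 4 were short of the threshold (adjusted p of 0.388, 0.607, 0.270 and 0.668). The co-receptor genes also did not pass: Lrp6 differed by 0.28 ± 0.16 (adjusted p = 0.251) and Lrp5 by -0.19 ± 0.16 (0.448). The bright gene Ryk, whose product is a kinase-like Wnt receptor of the non-canonical branch, differed by 0.13 ± 0.10 (adjusted p = 0.419, 95% interval -0.11 to 0.36).

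None of the 13 Wnt ligand genes measured passed in limma, against 31.2% of all genes. Of the 13, 2 (15.4%) had an unadjusted p under 0.05, against 17.7% of all genes that did not pass. These were Wnt5b (0.23 ± 0.08, adjusted p = 0.0932, limma) and Wnt7a (0.24 ± 0.09, adjusted p = 0.0922). With the unmoderated test, and under the other alternatives tried, 0 ligands passed too. Wnt7a had 6.04, 6.18 and 6.03 after tamoxifen and 5.85, 5.77 and 5.90 with vehicle. For Wnt5b the values were 6.68, 6.61 and 6.66 after tamoxifen and 6.44, 6.34 and 6.49 with vehicle. Groups did not overlap for 5 of the 13 ligands (38.5%), against 26.0% of all genes that did not pass. Over all genes, called ones included, the share was 49.1%. These 5 ligands were higher on tamoxifen arrays, by at most 0.24.

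Ligand values were low or moderate: they spanned 3.71 to 7.52 over all arrays, and 9 of the 13 genes lay below the median level of all probe sets. Mean levels ran from 3.85 for Wnt5a, a ligand of the non-canonical branch, to 7.40 for Wnt1, the founding canonical ligand; levels of different probe sets are not comparable as amounts of RNA. Differences ranged from -0.17 (Wnt9a) to 0.24 (Wnt7a), with 95% intervals between -0.46 and 0.52. For Wnt6, with 6.79, 6.95 and 7.08 after tamoxifen and 6.51, 6.82 and 6.84 with vehicle, the groups overlapped (0.22 ± 0.13, adjusted p = 0.281). Porcn, the acyltransferase that Wnts need for secretion, was at 7.30, 7.25 and 7.47 after tamoxifen and 7.26, 7.29 and 7.44 with vehicle, a difference of 0.01 ± 0.10 (adjusted p = 0.958).

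Over all roles, 5 of the 36 members that did not pass (13.9%) had an unadjusted p under 0.05, against 17.7% of all genes that did not pass. The groups did not overlap for 10 of the 36 (27.8%), against 26.0% of all genes that did not pass. Of the 20 members with several probe sets 0 had probe sets called in opposite directions, 2 had all called alike (Lef1 and Sfrp1), 3 had the brightest called and another not (Dkk3, Sfrp4 and Tcf7l2), and 15 had none called.

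Other genes of the pathway were followed in 4 further lists. Among regulators of Wnt secretion and of the receptors, 14 were measured, of which 1 was higher, 1 was lower and 12 did not pass (14.3% called, against 31.2% of all genes; median difference 0.00, against 0.01). Lgr4, a receptor for the R-spondins that strengthen Wnt signalling, had 8.30, 8.28 and 7.95 after tamoxifen and 9.95, 10.51 and 10.29 with vehicle. It fell by 2.07 on the log2 scale (SE 0.17; adjusted p = 6.95e-04, limma), or 4.21-fold. Znrf3, a ubiquitin ligase that clears Frizzleds from the surface and is itself a beta-catenin target, had 6.25, 5.95 and 6.72 after tamoxifen and 5.24, 5.07 and 5.33 with vehicle. It rose by 1.09 ± 0.20 (adjusted p = 0.00914, limma), or 2.13-fold, but did not pass in the unmoderated test (0.0640). Sostdc1, an antagonist of BMP and Wnt ligands singled out after its values were seen, had 5.54, 5.60 and 6.57 after tamoxifen and 7.33, 8.86 and 12.16 with vehicle. Its difference of -3.55 ± 1.13 did not pass (adjusted p = 0.0641), and vehicle array 3 was again the highest. With the experiment as a block 3 genes of this list were lower, without vehicle array 1 or 3 the number was 2 for each, and without tamoxifen array 1 the number higher was 2.

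Of 26 destruction complex and nuclear partner genes, 4 were higher, 7 lower and 15 did not pass (median -0.12), so 42.3% were called, against 31.2% of all genes. Btrc, the ubiquitin ligase subunit that recognises beta-catenin, had 7.06, 6.82 and 6.87 after tamoxifen and 8.57, 8.00 and 8.13 with vehicle. It fell by 1.32 on the log2 scale (SE 0.16; adjusted p = 0.00249, limma), and its other probe sets also passed (-1.02 and -0.63). Cby1, which encodes the beta-catenin antagonist Chibby, fell by 1.23 (SE 0.16; adjusted p = 0.00262), and -0.85 was found by its dimmer probe set. The ATPase genes Ruvbl1 and Ruvbl2, known as Pontin and Reptin, each rose by 1.05 ± 0.20 (adjusted p = 0.0103 and 0.0111), and neither passed in the unmoderated test (0.0679 and 0.0707), which left 1 gene of the list higher and 3 lower. The number lower was 4 without tamoxifen array 1 or 2 or without vehicle array 2.

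The planar polarity and JNK list had 17 measured genes, of which 4 were higher, 7 lower and 6 did not pass (median -0.30), so 64.7% were called, against 31.2% of all genes. Prickle1 encodes a core planar polarity protein and had 9.90, 9.66 and 9.43 after tamoxifen, against 6.25, 5.99 and 5.62 with vehicle. It rose by 3.71 ± 0.19 (adjusted p = 1.49e-04, limma), or 13.1-fold, and by 1.43 with its dimmer probe set. Its relative Prickle2 had 10.07, 9.96 and 10.22 after tamoxifen and 7.65, 7.43 and 7.94 with vehicle, and rose by 2.41 ± 0.15 (adjusted p = 2.82e-04, limma). Both genes stood more than 1 log2 unit above vehicle on every tamoxifen array. Nlk, a kinase that phosphorylates TCF/LEF factors, rose by 1.88 ± 0.08 (adjusted p = 8.23e-05), with 1.97 to 2.19 by its 4 other probe sets. Invs, a ciliary protein that acts on Dishevelled, fell by 1.63 (SE 0.27; adjusted p = 0.00652) and did not pass in the unmoderated test (0.0577), which left 4 genes of the list higher and 0 lower. The number lower was 4 without tamoxifen array 1 or vehicle array 1, and 2 without tamoxifen array 2 or 3.

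Of 23 textbook beta-catenin target genes other than the members, 10 were higher, 4 lower and 9 did not pass (median 0.21), so 43.5% were higher, against 13.9% of all genes. The unmoderated test left 5 higher and 1 lower. The largest rises were those of the connexin gene Gja1 (6.04 ± 0.20, adjusted p = 3.58e-05), the cyclin gene Ccnd1 (4.40 ± 0.28, 2.92e-04), the AP-1 gene Fosl1 (3.80 ± 0.10, 1.41e-05) and Id2 (3.50 ± 0.18, 1.45e-04), all by limma. By its other probe sets Gja1 differed by 3.62 and 0.14, and the smaller value did not pass. Several genes of this list, Ccnd1 and Fosl1 among them, are also known targets of ERK signalling. Further genes of this same list were singled out after their values were seen. Bambi, 1 of the 4 lower, fell by 1.72 on the log2 scale (SE 0.33, adjusted p = 0.0108, limma). The others lower were Ccn1 (-1.44, adjusted p = 0.00552), Ephb3 (-1.37, 4.46e-04) and Jun (-1.40, 0.0266). Jun is an AP-1 gene like Fosl1 but went the other way. Lgr5, Apcdd1 and Znrf3 are counted both here and among the regulators of Wnt secretion and of the receptors. Lgr5 differed by -0.50 ± 0.18 (adjusted p = 0.0926) and Apcdd1 by 0.21 ± 0.13 (0.295), and neither passed.

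**Figure D4:**
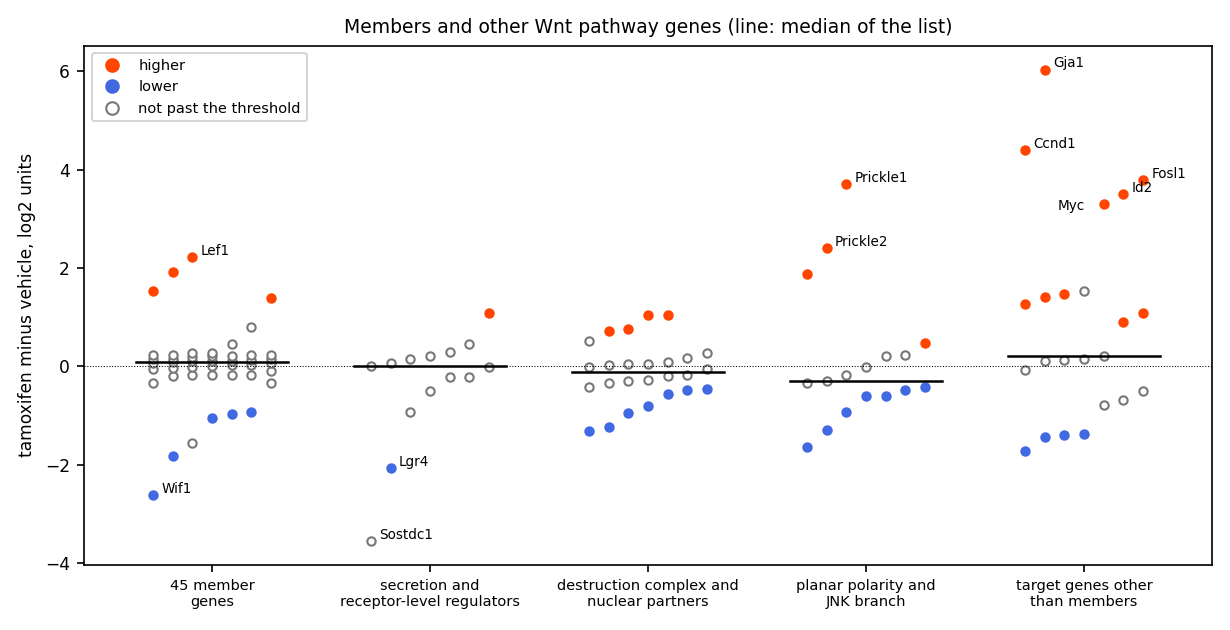
Tamoxifen minus vehicle difference in log2 units (y axis) for the 45 member genes and the 4 further pathway lists, each gene by its brightest probe set; filled points passed an adjusted p of 0.05 and the horizontal line is the median of the list. Sideways position only separates points. Prickle1 (3.71) and the target gene Gja1 (6.04) lie above the highest member, Lef1 (2.23).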

How the data were processed

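Affymetrix rat arrays were hybridised with total RNA from cultured Schwann cells, 3 after tamoxifen and 3 after vehicle. Values were deposited on the log2 scale, 1 per probe set and array. The submitters' processing notes name RMA; its version is not given. RMA shrinks differences of dim probe sets, and precision is limited by the number of arrays. Of 31099 probe sets 57 manufacturer controls were left out. Of the rest, 20826 had 1 gene symbol in the platform annotation, 436 had several and were not named, and 9780 were not listed. Entrez identifiers of 20758 matched RefSeq (GRCr8), which changed 0 symbols. Of a gene's probe sets the one brightest on average over the 6 arrays stood for it.

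The groups were compared by a linear model (limma 3.58.1, lmFit then eBayes, under R 4.3.3) that was two-sided and had no covariate. P-values of the 31042 probe sets were adjusted by Benjamini and Hochberg's method, and 0.05 was the threshold. With 3 arrays a group the smallest p of an exact permutation test is 0.1, and that test was not run. The main fit did not use pairing. Experiment numbers of the titles were taken as pairs only for the within-experiment differences and for the block described next. After subtraction of group means, arrays of the same number correlated at 0.26, 0.20 and 0.28. Correlations between arrays of different numbers are not given here, so these values alone do not show pairing. Alternatives were a block for the experiment, omission of each array, 2 scalings, removal of dim probe sets, 2 variance models and 2 ways of choosing probe sets. All member genes may be named; from each further list up to 4 called genes with the largest change were named, and the other list genes printed were chosen after their values were seen. The procedure was tested on simulated data. The members and lists were chosen with earlier results of these data known.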

Additional observations from a re-analysis of the deposited data

How the results depend on the processing

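Over 14 alternatives Lef1, Tcf7, Axin2, Tcf7l2 and Sfrp1 kept their direction and call. Leaving out 1 array gave ranges of 2.01 to 2.34, 1.32 to 1.78, 1.73 to 2.11, -2.02 to -1.57 and -1.05 to -0.89 for these 5 genes, and -3.38 to -2.15 for Wif1. The number of members called was 4 to 5 higher and 4 to 6 lower on leaving out 1 array. With the experiment as a replicate block 5 members were higher (Fzd2 added) and 6 lower (Fzd8 added), and over all probe sets 3675 were higher and 4584 lower. The unmoderated test left 2 members lower, and Dkk3 (adjusted p = 0.0513), Fzd1 (0.0705), Sfrp4 (0.0516) and Wif1 (0.135) lost their calls. It called 1957 probe sets higher and 1715 lower, against 3574 and 4004 in the moderated test. Leaving out 1 array gave 2427 to 3424 higher and 2668 to 3771 lower. Fzd8 passed as lower in 7 alternatives, Nkd2 as lower in 4, Sfrp5 as higher in 2, and Apc, Lrp6 and Fzd2 in 1 each. Signs turned only for small differences that passed in no setting. On leaving out 1 array these were Nkd1 (-0.09 to 0.01), Wnt2 (-0.17 to 0.10), Wnt11 (-0.03 to 0.10), Porcn (-0.05 to 0.07), Wnt4 (-0.05 to 0.03), Axin1 (-0.22 to 0.08) and Fzd6 (-0.40 to 0.10). Median centring gave -0.03 for Porcn, -0.00 for Sfrp2 and -0.01 for Wnt11. Quantile normalization gave -0.01 for Sfrp2 and Wnt11, the mean of probe sets -0.07 for Porcn and Wnt11 and 0.10 for Wnt2, and leaving out probe sets with a cross-hybridising suffix -0.01 for Dvl1. The cause of these shifts was not tested. Counts for the further lists were recomputed as alternatives added after seeing the data; with the unmoderated test the numbers higher and lower were 0 and 1 for secretion and receptor regulators, 1 and 3 for the destruction complex list, 4 and 0 for planar polarity and 5 and 1 for the targets. Signal over background limits the dim members, since the table holds no detection calls.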
